A study of Homo sapiens with 3 samples.

Results

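A set of 40 genes of glucose metabolism was followed across 3 expression arrays: the enzymes and transporters of glycolysis, of lactate and pyruvate handling, of glycogen turnover and of the pentose phosphate pathway. All were chosen by name, with earlier results of these data known. A gene counted as measured when the platform's probe table gave it a probe set with exactly 1 gene symbol, and this held for 38 of the 40, with 83 probe sets between them, out of 19775 genes measured on the platform. The lactate transporter genes SLC16A1 and SLC16A3 had no such probe set and were not analysed here. Each gene is described by its brightest probe set (highest mean log2 signal over the 3 arrays), and 14 of the 38 had only 1 probe set.

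The arrays profiled a human colorectal cancer line, which the sample labels name as SW620 and the series' design text as SW480, a different colorectal line. One array (LATS2) came from cells infected with virus carrying full-length LATS2, a kinase of the Hippo growth-control pathway. One (LATS2N) came from cells with virus carrying residues 1 to 625 of LATS2, a fragment that ends before the kinase domain, and one (control) from cells with empty-vector virus. All 3 cultures had thus been infected with virus, and per the design text expression of both constructs was stable. Whether each culture is a single clone or a pool, and which promoter drives the construct, is not given in the sources used here. With 1 array per group there is no spread between replicates and no test, so every difference below compares these arrays and not the conditions.

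Values are MAS5 signals, brightness on a linear scale, and each array has been scaled to the same trimmed mean of 500. Signals below a floor of 50.5, the median of all signals, were set to the floor before ratios were taken, and a gene was called higher or lower when its signals differed by at least 2-fold. The only error these arrays hold is the disagreement between probe sets of the same gene. Its SD on the log2 scale, given below in brackets after a log2 ratio for genes of like brightness, covers noise between probe sets and no difference between cultures. The median log2 ratio of all genes above the floor on every array was 0.04 for LATS2 against control and 0.02 for LATS2N against control. Of the 4 LATS2 probe sets, 2 lay below the floor on every array, and the other 2 read 219.2 and 377.1 on the LATS2, 219.1 and 409.2 on the LATS2N and 205.7 and 385.2 on the control array. Which part of the transcript they read is not given in the sources used here, so these signals do not check the labels. Of 9 colon epithelium markers, 8 were above the floor on all 3 arrays, LGALS4 being the exception. None of 3 measured immune markers was above it on all arrays, while 2 of 6 fibroblast markers were, COL1A1 and LUM, with summed fibroblast signals of 2524 on the LATS2, 2357 on the LATS2N and 1937 on the control array. Of 3 endothelial markers 1 was above the floor on all arrays, and their summed signals were 99.1, 107 and 179 in the same order. The median of 3 probe sets for 18S ribosomal RNA was 6632 on the LATS2, 10612 on the LATS2N and 17278 on the control array. HK1, HK2 and PFKFB3 below run in the same order over the arrays. So do PFKP, PKM and PGM2, which differed by less than 1.2-fold in every comparison. The part of this RNA in the differences of these genes was not tested.

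Glycolysis turns glucose into pyruvate. Cells control it mainly where glucose enters, at hexokinase and at phosphofructokinase, and many steps are served by several isozymes from different genes. Bifunctional PFKFB enzymes set the level of fructose 2,6-bisphosphate, the activator of phosphofructokinase. Pyruvate dehydrogenase kinases (PDK) keep pyruvate from being oxidised in the mitochondria, glycogen enzymes store and release glucose, and the pentose phosphate pathway makes NADPH and ribose. Colorectal cancer cells typically take up much glucose and release lactate, and low oxygen raises many of these genes through the hypoxia-inducible factor.

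On the LATS2 array a small subset of these genes was lower than on the control array. The 11 genes that read at least 10000 on all 3 arrays had log2 ratios between -0.13 and 0.12. Of the 38 measured genes 3 were called lower (7.89%) and none higher, where 0.842% of all 13186 genes reaching the floor were called lower and 0.963% higher. At a smaller limit of 1.5-fold, 6 were lower (15.8%) and 1 higher, against 4.41% and 5.85% of all genes. Among genes of at least 500 on the brighter of both arrays, 5 of 34 members were lower by 1.5-fold or more, where 1.59% of all 7402 such genes were. By place from the lowest ratio among those 7402, PFKFB3 stood at 14, SLC2A3 at 26, HK2 at 28 and PGM1 at 40. Most members, like most genes, were close to control: 28 of 38 differed by less than 1.2-fold, where 8275 of all 13186 genes did. Among genes of at least 500 on the brighter array these were 27 of 34 members and 5550 of 7402 genes. The median log2 ratio of the members was -0.06, where it was 0.03 over all genes reaching the floor.

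**Figure D1:**
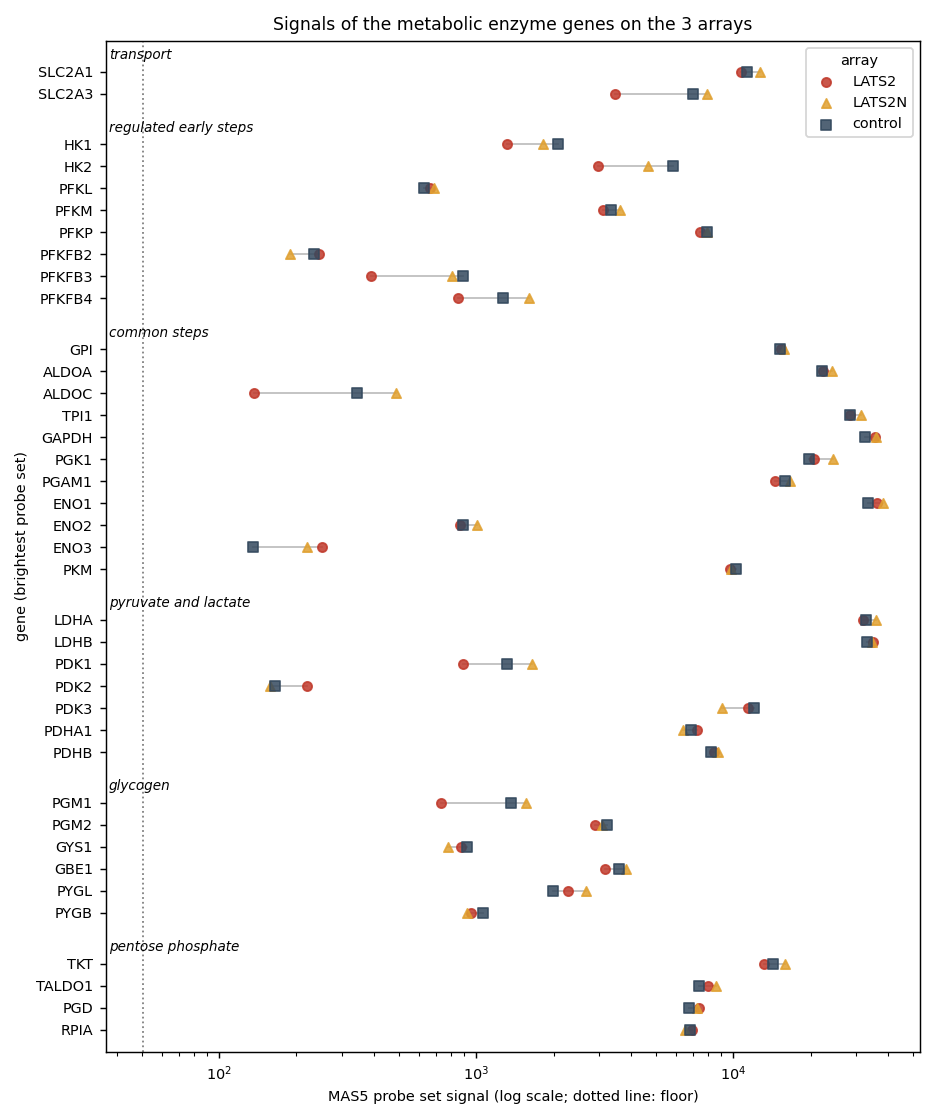
Signal of each measured gene on the LATS2 (circle), LATS2N (triangle) and control (square) arrays, on a log axis, with genes grouped by role and the floor as a dotted line. SLC2A3, PFKFB3, ALDOC and PGM1 have their LATS2 point well to the left of the other two, while the bright enzymes such as GAPDH, ENO1 and LDHA have 3 nearly overlapping points.

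Glucose enters these cells through facilitative transporters. SLC2A3, which encodes the high-affinity transporter GLUT3, read 3460 on the LATS2, 7935 on the LATS2N and 6955 on the control array. The LATS2 array was the low one of the 3 and the other two were close to each other. Its log2 ratio was -1.01 (0.11) for LATS2 against control, 2.01-fold lower, and -1.20 (0.10) for LATS2 against LATS2N, 2.29-fold lower. The other 2 SLC2A3 probe sets went the same way with smaller ratios of -0.56 and -0.58 against control, so the 2-fold call rests on the brightest of 3. The paralog SLC2A14 is nearly identical to SLC2A3, so the share of each gene in these signals is uncertain. SLC2A1, which encodes the widespread transporter GLUT1, read 10688 on the LATS2, 12679 on the LATS2N and 11275 on the control array, a log2 ratio of -0.08 (0.11) for LATS2 against control. The log2 ratio of SLC2A3 was thus 0.93 below that of SLC2A1.

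Hexokinases trap glucose in the cell as glucose 6-phosphate, and HK1 and HK2 were lower on the LATS2 array while HKDC1, by its brightest probe set, was level. HK2, the inducible isozyme of many tumours, read 2970 on the LATS2, 4641 on the LATS2N and 5853 on the control array. LATS2 was lowest and LATS2N lay between it and control. The log2 ratio was -0.98 (0.11) for LATS2 against control, 1.97-fold and just short of the call, and -0.33 (0.09) for LATS2N against control. Its 2 dim probe sets, at 104.4 to 151.8, gave -0.06 and -0.36 for LATS2 against control. For LATS2 against LATS2N they gave 0.03 and 0.18, where the bright one gave -0.64. HK1, the housekeeping isozyme, had 1 probe set and read 1318 on the LATS2, 1824 on the LATS2N and 2081 on the control array. The order of the arrays was that of HK2, and the log2 ratio was -0.66 (0.19) for LATS2 against control, with LATS2N at -0.19 (0.16). HKDC1, a hexokinase gene outside the set of 40, read 1330 on the LATS2, 1060 on the LATS2N and 1331 on the control array, with 4 of 4 usable probe sets below control on each construct array. HK3 lay below the floor on every array. Both HKDC1 and HK3 fall outside the naming rule.

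The PFKFB family held one of the clearest differences, and the phosphofructokinases themselves held none of 1.2-fold or more. PFKFB3, the family member with the strongest kinase side, had 1 probe set and read 388.5 on the LATS2, 808.5 on the LATS2N and 889.3 on the control array. The construct arrays differed from each other more than LATS2N did from control. Its log2 ratio was -1.19 (0.27) for LATS2 against control, 2.29-fold lower, -0.14 (0.16) for LATS2N against control and -1.06 (0.26) for LATS2 against LATS2N. PFKFB4 read 850.7 on the LATS2, 1608 on the LATS2N and 1271 on the control array. Here control lay between the constructs, with LATS2 at a log2 ratio of -0.58 (0.19) and LATS2N at 0.34 (0.16) against control, and LATS2 was 1.89-fold lower than LATS2N. PFKFB2 was dim, at 246 on the LATS2, 189.1 on the LATS2N and 234.3 on the control array, and did not follow them. Its log2 ratio for LATS2 against control was 0.07 (0.27), which is 1.26 above that of PFKFB3. The 3 phosphofructokinase genes, PFKL, PFKM and PFKP, had log2 ratios of 0.07, -0.11 and -0.09 for LATS2 against control and 0.12, 0.12 and -0.01 for LATS2N.

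The steps that all glycolytic flux passes through read nearly alike on the 3 arrays, with the aldolases split. ALDOC, the brain-type aldolase, had 1 probe set and read 136.7 on the LATS2, 488.2 on the LATS2N and 344 on the control array. The signal was lowest on the LATS2 and highest on the LATS2N array. It had the largest ratio of the 38 genes: -1.33 (0.35) for LATS2 against control, 2.52-fold lower, and -1.84 (0.36) for LATS2 against LATS2N, 3.57-fold lower. Counted from the lowest ratio, ALDOC stood at place 10 of the 13175 genes reaching the floor in LATS2 against LATS2N, and at place 30 of 13186 in LATS2 against control. ALDOA, the main aldolase of muscle and of most tumours, read 22439 on the LATS2, 24201 on the LATS2N and 22172 on the control array. With a log2 ratio of 0.02 (0.11) for LATS2 against control it stood 1.35 above ALDOC.

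Among the enolases, ENO3, the muscle isozyme, was the only member at least 1.5-fold higher on a construct array. It was dim, reading 250.9 on the LATS2, 220.1 on the LATS2N and 135.1 on the control array. Both constructs lay above control and near each other, with LATS2 at a log2 ratio of 0.89 (0.35) and LATS2N at 0.70 (0.35) against that 1 control array. The widespread ENO1 read 36163 on the LATS2, 38371 on the LATS2N and 33335 on the control array, and the neuronal-type ENO2 864.3, 1006 and 892.1 in that order. They had log2 ratios of 0.12 and -0.05 for LATS2 and 0.20 and 0.17 for LATS2N. GPI, the isomerase after hexokinase, and TPI1, which interconverts the triose phosphates, had ratios of 0.02 and 0.01 for LATS2. PGAM1, a mutase, and PKM, the pyruvate kinase, had -0.13 and -0.09.

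GAPDH, the dehydrogenase often used as a reference gene, can be read 6 times on these arrays. Its 3 gene probe sets gave log2 ratios from 0.08 to 0.12 for LATS2 against control. The manufacturer's 3 control probe sets gave 0.05 for the 3-prime part, 0.16 for the middle and 0.18 for the 5-prime part of the transcript. Divided by the 5-prime signal, the 3-prime signal was 0.939 on the LATS2, 0.958 on the LATS2N and 1.02 on the control array. PGK1, the kinase of the first ATP-forming step, was chosen for its signals after its values were seen. It read 20658 on the LATS2, 24431 on the LATS2N and 19714 on the control array with its brightest probe set. For LATS2 against control that probe set gave 0.07 (0.11), whereas the 2 at 4325 to 6957 gave -0.17 and -0.23. Against control all 6 PGK1 probe sets were above 0 for LATS2N, between 0.21 and 0.54. For LATS2 against LATS2N all 6 were below 0, between -0.98 and -0.24. Many of the bright probe sets here can also read related sequences such as processed pseudogenes.

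A group of 11 members read at least 10000 on all 3 arrays: SLC2A1, GPI, ALDOA, TPI1, GAPDH, PGK1, PGAM1, ENO1, LDHA, LDHB and TKT. Their log2 ratios for LATS2 against control stayed between -0.13 and 0.12, and those for LATS2N against control between 0.05 and 0.31. Every one of the genes lower by 1.5-fold or more on the LATS2 array read below 10000 on the control array.

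**Figure D2:**
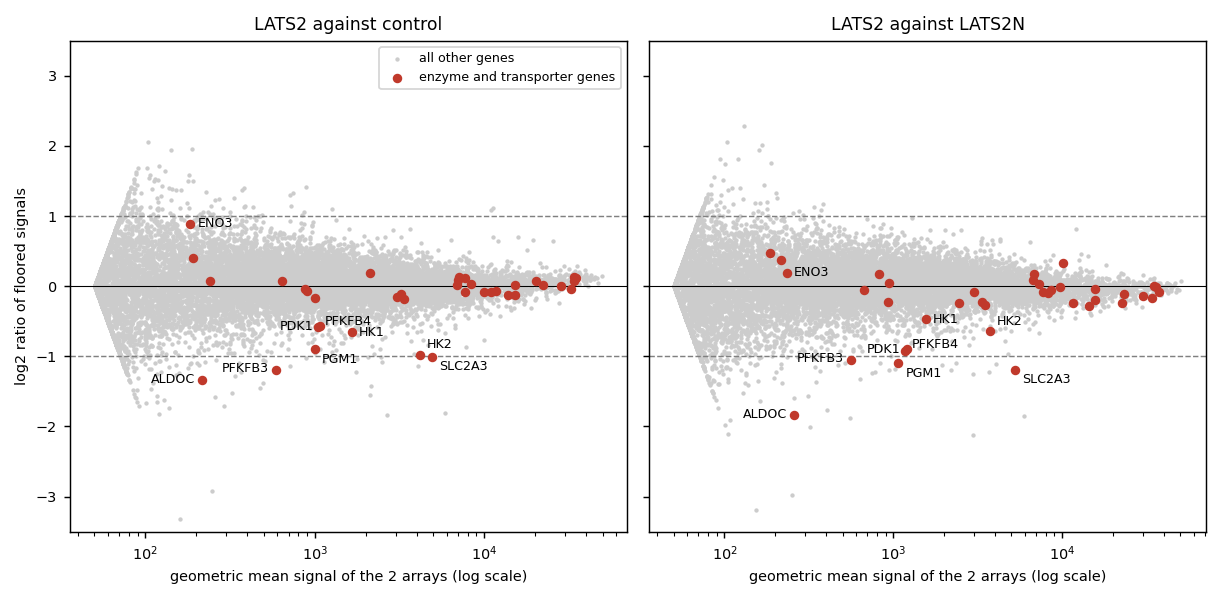
Log2 ratio of floored signals against the geometric mean signal of both arrays, for LATS2 against control (left) and LATS2 against LATS2N (right), with all genes reaching the floor in grey and the measured enzyme and transporter genes in red. Dashed lines mark 2-fold. ALDOC, PFKFB3, PGM1, SLC2A3 and HK2 lie at or near the lower edge of the cloud at their brightness in the left panel, where members above 10000 lie near 0.

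Pyruvate is reduced to lactate by lactate dehydrogenase or oxidised by the pyruvate dehydrogenase complex, which the PDK kinases switch off. PDK1, a kinase induced by low oxygen, read 885.7 on the LATS2, 1649 on the LATS2N and 1315 on the control array. LATS2 was lowest, LATS2N highest, and the log2 ratios were -0.57 (0.19) and 0.33 (0.16) against control, with -0.90 (0.16) between the constructs. A second PDK1 probe set read 200.5, 388.9 and 260.3 in the same order and gave -0.38 and 0.58 against control, and -0.96 between the constructs. The remaining PDK1 probe set read 69.58 on the LATS2, 14.96 on the LATS2N and 43.98 on the control array, near or below the floor. It went the other way, at 0.46 for LATS2 against control and against LATS2N. PDK3 read 11403 on the LATS2, 9070 on the LATS2N and 12009 on the control array, but its 5 probe sets disagreed. Ratios for LATS2 against control ran from -0.07 to 0.51, and for LATS2N against control from -0.80 to 0.16. All 5 were higher on the LATS2 than on the LATS2N array, by 0.12 to 0.78 on the log2 scale. PDK2 was dim, 219.2 on the LATS2, 157.5 on the LATS2N and 165.6 on the control array, and its 2 probe sets gave 0.40 and -0.56 for LATS2 against control, and -0.07 and -1.01 for LATS2N. The lactate dehydrogenase genes LDHA and LDHB had log2 ratios of -0.04 and 0.07 for LATS2 against control, and of 0.14 and 0.06 for LATS2N. PDHA1 and PDHB, the E1 subunits of pyruvate dehydrogenase, had 0.08 and 0.03 for LATS2 and -0.10 and 0.09 for LATS2N.

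**Figure D3:**
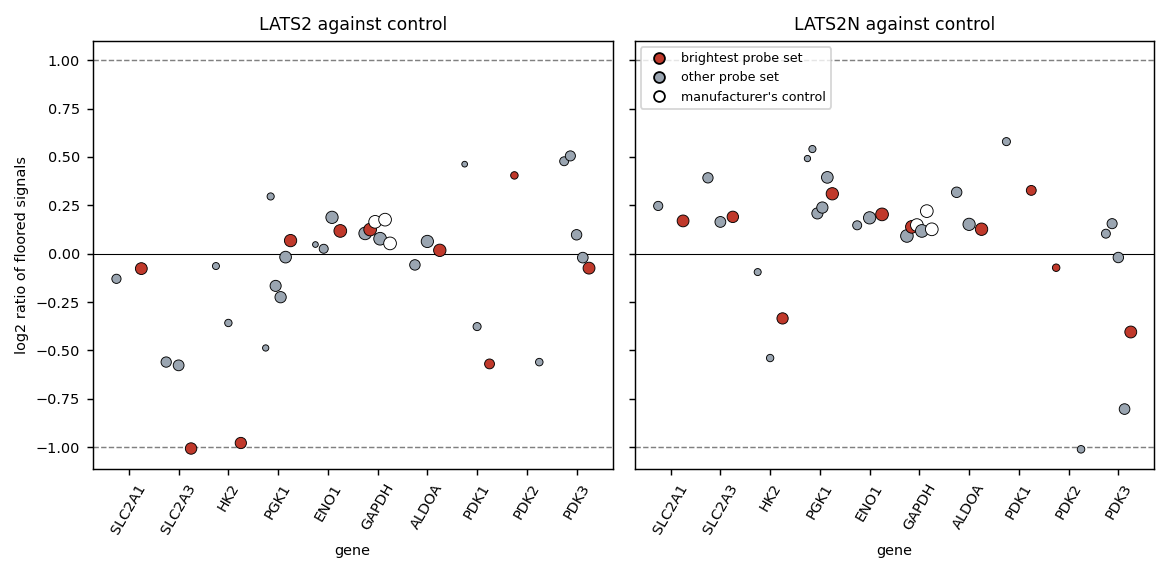
Log2 ratio of every usable probe set of 10 members, for LATS2 against control (left) and LATS2N against control (right), with larger points for brighter probe sets, the brightest gene probe set in red and the manufacturer's GAPDH controls in white. All 3 SLC2A3 points lie below 0 on the left and above 0 on the right, and all 6 PGK1 points lie above 0 on the right. The PDK1, PDK2 and PDK3 points spread over both signs on the left.

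Glycogen synthesis branches off through phosphoglucomutase, which interconverts glucose 6-phosphate and glucose 1-phosphate. PGM1, the main isozyme, had 1 probe set and read 733 on the LATS2, 1570 on the LATS2N and 1367 on the control array. The LATS2 signal stood apart from the other two. Its log2 ratio was -0.90 (0.19) for LATS2 against control, 1.87-fold lower, and -1.10 (0.16) for LATS2 against LATS2N, 2.14-fold lower and past the call. PGM2, which acts mainly on phosphopentoses, read 2903 on the LATS2, 3078 on the LATS2N and 3222 on the control array and had -0.15 (0.11) and -0.08 (0.10) in these comparisons. The synthase GYS1 and the branching enzyme GBE1 had log2 ratios of -0.07 and -0.19 for LATS2 against control, and of -0.24 and 0.09 for LATS2N. PYGL, the liver-type phosphorylase that releases glucose 1-phosphate, read 2270 on the LATS2, 2672 on the LATS2N and 1987 on the control array. It too was chosen after its values were seen. Both constructs were above control, LATS2 by a log2 ratio of 0.19 (0.19) and LATS2N by 0.43 (0.16), while the brain-type PYGB had -0.16 and -0.21.

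By their brightest probe sets, none of the 4 pentose phosphate members (TKT, TALDO1, PGD and RPIA) reached 1.5-fold in any comparison. TKT and TALDO1, the enzymes that move short carbon units between sugars, had log2 ratios of -0.13 and 0.12 for LATS2 against control and 0.15 and 0.22 for LATS2N. PGD, the second NADPH-forming dehydrogenase, had 0.13 and 0.11, and RPIA, the ribose isomerase, 0.02 and -0.07. A dim PGD probe set read 98.5 on the LATS2, 8.64 on the LATS2N and 13.8 on the control array, at least 1.95-fold higher on LATS2 than on either, both of which lay below the floor.

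On the LATS2N array no member was called in either direction, where 0.566% of 13245 genes were called lower and 0.944% higher. At 1.5-fold only ENO3 was higher (2.63% of the 38) and none was lower, against 4.86% and 3.27% of all genes. Of the 38, 25 were above control (65.8%, against 53.6% of all genes) and the median log2 ratio was 0.11, where it was 0.02 over all genes. With quantile normalization 22 of 38 were above control and the median was 0.03, close to the 0.02 of all genes under that scaling. Of the 11 common-step genes 10 were above 0, with PKM at -0.07 as the exception, and their median was 0.15. HK2 and PDK3 lay furthest below control, at -0.33 and -0.40.

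Set directly against LATS2N, without use of the control array, LATS2 gave 4 members called lower (10.5%) and none higher, where 1% of 13175 genes were called lower and 0.592% higher. The 4 were SLC2A3, PFKFB3, ALDOC and PGM1. At 1.5-fold 7 were lower (18.4%), adding HK2, PFKFB4 and PDK1, and none higher, against 5.07% and 4.27% of all genes. Among members of at least 500 on the brighter array it was 6 of 34, where 1.75% of all such genes were lower. In all 28 of 38 were below 0, where 6285 of all 13175 genes were, and the median log2 ratio was -0.10, where it was 0.01 over all genes. Of 21 members with 2 or more probe sets above the floor on 1 of the arrays compared, 9 had probe sets that disagreed in direction. In LATS2 against control this held for 12 of 20 such members, and in LATS2N against control for 4 of 20. The LATS2 array was the lowest of the 3 for 18 of the 38 members (47.4%) and LATS2N the highest for 22 (57.9%). Among 11534 genes above the floor on all arrays these shares were 30.6% and 31.8%. This comparison and LATS2 against control share the LATS2 array, so a low reading on that array enters both.

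**Figure D4:**
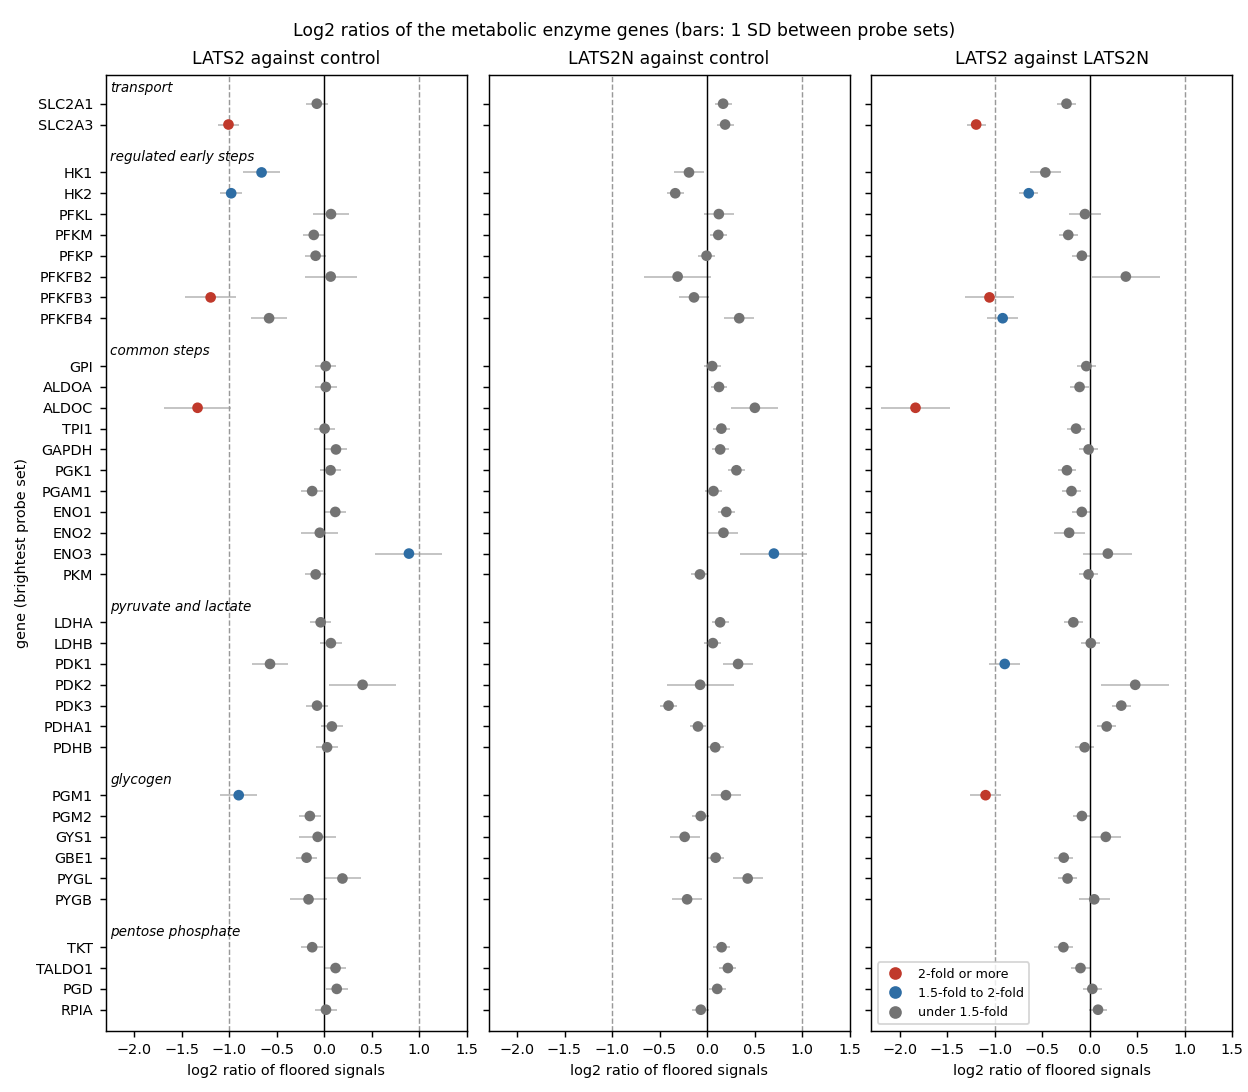
Log2 ratio of each measured gene in the 3 comparisons, with bars of 1 SD between probe sets of like brightness and dashed lines at 2-fold. Red points are past 2-fold and blue points past 1.5-fold. The left and right panels hold 3 and 4 red points, all lower on the LATS2 array, and the middle panel holds none.

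The start sites of the lower genes were searched for the core letters of the hypoxia response element, the DNA element bound by the hypoxia-inducible factor. The letters were ACGTG and GCGTG on either strand, in RefSeq windows of 250 bases before to 50 after each annotated start (GRCh38.p14), and an overlap of both strands in CACGTG counted as 2 matches. RefSeq windows were held for 37 of the 40 genes (68 windows) but not for SLC2A3. Below are stretches for the 5 genes with a window that were at least 1.5-fold lower on the LATS2 array. LDHA and PGK1, near-control genes chosen after their values were seen, are given too. Each stretch lies upstream of the annotated start with most matches, and other starts of the same gene can lie elsewhere. Each is written 5′ to 3′ on the gene's strand with the matches in capitals. The LDHA stretch holds 5 of the 6 matches in its window and the PGK1 stretch 3 of 4, and the others hold all.
ALDOC, chr17:28576899-28577145, minus strand: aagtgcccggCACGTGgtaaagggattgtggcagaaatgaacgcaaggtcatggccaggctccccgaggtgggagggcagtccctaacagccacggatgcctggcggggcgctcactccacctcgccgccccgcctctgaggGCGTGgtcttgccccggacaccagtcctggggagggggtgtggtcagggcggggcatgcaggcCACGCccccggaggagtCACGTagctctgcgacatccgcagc
HK2, chr2:74834956-74835124, plus strand: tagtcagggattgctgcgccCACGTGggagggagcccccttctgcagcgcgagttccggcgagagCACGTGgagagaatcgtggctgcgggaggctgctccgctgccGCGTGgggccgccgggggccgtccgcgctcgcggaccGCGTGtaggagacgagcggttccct
PFKFB3, chr10:6202804-6202849, plus strand: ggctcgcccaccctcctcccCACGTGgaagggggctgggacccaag
PGM1, chr1:63593633-63593807, plus strand: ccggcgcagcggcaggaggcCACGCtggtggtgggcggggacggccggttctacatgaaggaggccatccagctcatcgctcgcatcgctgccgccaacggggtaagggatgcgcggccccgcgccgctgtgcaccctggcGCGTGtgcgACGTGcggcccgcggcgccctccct
HK1, chr10:69318895-69318939, plus strand: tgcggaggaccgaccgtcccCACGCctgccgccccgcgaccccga
LDHA, chr11:18394358-18394514, plus strand: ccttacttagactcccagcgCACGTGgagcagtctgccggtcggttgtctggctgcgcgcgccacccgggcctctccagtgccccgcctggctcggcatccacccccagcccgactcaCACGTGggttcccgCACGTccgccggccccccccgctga
PGK1, chrX:78104017-78104089, plus strand: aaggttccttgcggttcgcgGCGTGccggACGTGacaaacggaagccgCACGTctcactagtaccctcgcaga

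The letters were present in windows of genes that differed and of genes that did not. All 5 of the lower genes had a match in at least 1 window, as did 23 of 27 members (85.2%) within 1.2-fold of control, 62.3% of genes measured here and 52.4% of all genes of the table. Per window, the lower genes had matches in 8 of 15 (53.3%), all members in 43 of 68 (63.2%), genes measured here in 55.0% of 21490 and all genes of the table in 48.4% of 35116 windows. By gene, the windows with a match were 2 of 7 for HK1, 1 of 3 for PGM1, 2 of 2 each for HK2 and PFKFB3, and 1 of 1 for ALDOC. HK2, LDHA and PDHB each had a window with 6 matches, and ALDOC had 5 in its only window. LDHA and PDHB were near control, with log2 ratios of -0.04 and 0.03 for LATS2 against control. A match is a description of the letters and not a binding site.

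A list of 9 regulators and targets of the hypoxia-inducible factor, chosen with earlier results of these data known, crosses this set. Of the 7 that reached the floor in LATS2 against control, 4 were called lower, ANKRD37, ADM, EGLN3 and VEGFA, and none higher. Over all genes reaching the floor 0.842% were called lower and 0.963% higher. In LATS2N against control none of the 7 was called, where 0.566% of all genes were called lower and 0.944% higher. ANKRD37, a target of the factor, read 1414 on the LATS2, 6147 on the LATS2N and 5060 on the control array, and ADM, which encodes adrenomedullin, 161.1, 646.8 and 524.9 in that order. HIF1A, the factor's oxygen-regulated subunit, read 7146, 6869 and 7149, so its own transcript signal was level across arrays. ARNT, its partner subunit, was above control on both, with log2 ratios of 0.43 on LATS2 and 0.62 on LATS2N, though only 2 of 4 usable probe sets were above 0 for LATS2N. VEGFA, the angiogenic growth factor, was below control on both, at -1.14 and -0.45, with 3 of 4 probe sets below 0 for each. EPAS1, the related subunit, was dim, at 80.9 on the LATS2, 78.2 on the LATS2N and 81.7 on the control array, with 1 usable probe set of 3. BNIP3 lay below the floor and CA9 was not analysed here.

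A further 74 genes of the same pathways, listed by name with earlier results of these data known, were set beside the members. Of these 66 had a probe set with 1 symbol and 51 reached the floor in LATS2 against control. Of the 51, 1 was called lower and 1 higher, and 4 were lower and 5 higher at 1.5-fold, with a median log2 ratio of 0.02. As shares of the 51 these were 1.96% each way at 2-fold and 7.84% and 9.80% at 1.5-fold, where all genes had 0.842% and 0.963%, and 4.41% and 5.85%. SHPK, the sedoheptulose kinase that feeds the pentose phosphate pathway, read 153.8 on the LATS2, 263.2 on the LATS2N and 325 on the control array, 2.11-fold lower on LATS2 than on control with 1 probe set. PPP1R3E, a glycogen-targeting subunit of protein phosphatase 1, read 115.5, 123.8 and 53.3 in that order. It was 2.17-fold higher on the LATS2 and 2.32-fold higher on the LATS2N array, with 3 of 3 usable probe sets above 0 on each and a control signal close to the floor. In LATS2N against control 2 of 51 were called higher (3.92%, against 0.944% of all genes) and none lower (0.566%), the second being G6PC1, the liver glucose 6-phosphatase, at least 2.26-fold higher than a control signal at the floor. G6PC1 falls outside the naming rule and was chosen after its value was seen. It also was the 1 of 50 called lower in LATS2 against LATS2N, by at least 2.26-fold (2%, against 1% of all genes).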

How the data were processed

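Expression arrays of 3 cultures, 1 per group, were analysed. The deposited values are linear probe set intensities. Per the submitters' processing notes they come from MAS5, with version and settings not given in the sources used here. The trimmed mean without the lowest and highest 2% was 500.1 on each array, found from the values. Detection calls were not used. Precision is limited by the number of arrays.

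Of 54675 probe sets, 62 manufacturer's controls were set aside and 41091 had 1 gene symbol in the platform table. Symbols were updated through gene identifiers to RefSeq GRCh38.p14 (41037 matched), giving 19775 genes, each read by its brightest probe set. Floored log2 ratios were computed over all genes with Python 3.11.15, numpy 2.4.6 and pandas 2.3.3. The size call was run on simulated data with the same noise at every brightness. On the arrays the SD between probe sets for LATS2 against control ran from 0.11 above 2000 to 0.48 between 50 and 100. The simulation therefore does not show how the call performs on dim genes. The SD between probe sets is 1.4826 times the median absolute deviation of the difference in log2 ratio between 2 probe sets of a gene, over the square root of 2, in bins of the dimmer signal.

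The members and lists were chosen with earlier results of these data known. Named with all 3 signals are members that differed by 1.5-fold in any comparison and their isozymes, with PGK1 and PYGL added after their values were seen. Other genes of the pathways are named where they differed by 2-fold with both signals above the floor. HKDC1, HK3, G6PC1 and the genes under other observations fall outside this rule and were added by choice. Alternatives were other floors, probe set rules, scalings, brightness limits and call sizes. A planned comparison of isozyme protein sequences was not run.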

Additional observations from a re-analysis of the deposited data

How the results depend on the processing

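No paired analysis was possible because each group has 1 array. The median log2 ratio of the members kept its sign under all 8 alternatives to the floor, probe set rule, scaling and brightness, but not its size. For LATS2 against control it was -0.087 with quantile normalization (-0.06 as reported). For LATS2N against control it was 0.030 with quantile normalization, 0.094 with the median of the probe sets, 0.088 without the suffixes _x_at, _s_at and _a_at, and 0.14 with median centring (0.11 as reported). For LATS2 against LATS2N it was -0.15 with the floor raised to the 75th percentile, -0.15 with median centring and -0.13 at a signal of at least 500 (-0.10 as reported). The counts called at 2-fold stayed within 1.5 times under 7 of them. The exception was the use of probe sets without those suffixes, which left 23 members measured. It gave 1 called lower in LATS2 against control, where 3 were, and 1 in LATS2 against LATS2N, where 4 were, because SLC2A3, PFKFB3 and PGM1 are read only by such probe sets. At a 1.5-fold call, 6 were lower and 1 higher in LATS2 against control, 1 was higher in LATS2N against control and 7 were lower in LATS2 against LATS2N. With each gene read by the median of its probe sets, SLC2A3 fell short of the call (-0.58 for LATS2 against control, -0.95 against LATS2N), and HK2 gave -0.36 and 0.03. At a floor at the 75th percentile the ALDOC ratio was 0 and -0.44, since 2 of its 3 signals then lie below the floor. No called member changed direction under any alternative run. Dim members, ENO3, PDK2, PFKFB2 and the called ALDOC among them, have the widest spread between probe sets of like brightness.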

Other observations

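Chosen after their values were seen, 3 further genes of the listed pathways were at least 1.5-fold higher on the LATS2 than on the control array with 2 of 2 probe sets above 0, though short of 2-fold. G6PC3, the widespread glucose 6-phosphatase, read 2579 on the LATS2, 2251 on the LATS2N and 1649 on the control array. SLC37A4, the transporter that brings glucose 6-phosphate to it, read 1492, 1165 and 991.8 in that order, and RBKS, ribokinase, 422, 248.5 and 237.4. The other glucose 6-phosphatase genes did not share this: G6PC2 read 79.5 on the LATS2, 62.0 on the LATS2N and 96.4 on the control array, and G6PC1 was below the floor on the LATS2 and control arrays. Genes of the same list also lay below control on the LATS2 array by over 1.5-fold, among them FBP1, the gluconeogenic bisphosphatase (54.2, 104.8 and 88.5), and EPM2A, the glycogen phosphatase laforin (114.8, 177.4 and 184.7).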
